A study of Mus musculus with 20 samples.

Results

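Of 3208 regions that the authors listed as open in luminal SOX10-high PY230 tumour cells, 1064 shared no base with an ATAC-seq peak of any of 4 normal mammary cell types. These 1064 regions are called peak-free open regions here. They were chosen by position alone: a region of the open list on 19 autosomes or X was kept if it overlapped none of the pooled peaks of fetal mammary stem cells (fMaSC), basal cells, luminal progenitors or mature luminal cells. They made up 33.2% of the open list (exact 95% binomial interval 31.5 to 34.8%, counting error only) and covered 1.43 of its 5.11 Mb. The remaining 2144 open regions are called peak-bearing, and 2006 peak-free regions of the 15108 closed in SOX10-high cells (13.3%) served as the nearest counterpart. The 14 deposited lists held 311456 nuclear regions in all.

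The series profiled open chromatin in 20 mouse samples. The groups used here were fMaSC of C57BL6J embryos at day 18, with 2 samples, and 3 populations of the adult C57BL6J mammary gland (basal, luminal progenitor and mature luminal), each with 2 samples. The tumour groups were luminal cells of PY230 tumours, with 3 SOX10-high and 3 SOX10-low samples. PY230 is a mouse mammary tumour line of C57BL6J strain that was transplanted into syngeneic mice, so all tumour samples used here trace to a single line. The labels do not say how SOX10-high and SOX10-low cells were told apart. With no values per sample in the lists, neither depth nor the spread between replicates is known, and an absent peak says only that none passed the authors' threshold in that pool.

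ATAC-seq reads accessible DNA through insertions of the Tn5 transposase, which enters nucleosome-free stretches such as promoters and enhancers far more easily than packed chromatin. A site that is accessible in a tumour state but in none of its related normal types is one way in which a regulatory element outside the normal lineage program can appear. SOX10 is an HMG-box transcription factor best known from the neural crest and its glial and melanocyte derivatives. SOX proteins bend DNA on binding, and some of them can bind sites within nucleosomal DNA. In the mammary gland, luminal progenitors give rise to milk-producing cells, mature luminal cells sense hormones, and basal cells form the contractile outer layer. No gene or sequence is given for any region below, because no genome or annotation of the files' build was used here.

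Each region of the list carries a score from the authors, on a scale the labels do not explain. The 4 highest scores of the 3208 open regions all belonged to peak-free regions. The first was chr7:93661701-93662500 (mm9), an 800 bp region with a score of 1152.8. The second, chr7:54028001-54029400, scored 678.6, and the third, chr5:130398701-130399500, scored 651.1. The fourth was chr18:74959301-74961100, with a score of 599.0. The highest score of any peak-bearing open region was 542.4. Because the scores come from the contrast that chose the regions, these ranks are a description and carry no test.

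These leading regions stood in very different surroundings. The chr7:93661701-93662500 region was 250.7 kb from the nearest normal peak, an fMaSC peak with a fold enrichment of 5.57 from the authors' peak caller, below the median of 7.60 in that list. Basal, luminal progenitor and mature luminal peaks began 596.5, 596.6 and 596.7 kb away. Only 2 normal peaks of any type lay within 500 kb of it. The nearest other open region, chr7:93426901-93428100, was 233.6 kb away and also peak-free, with a score of 309.1 and rank 31 in the open list. No peak-bearing open region lay within 1 Mb, and the nearest closed region was 654.7 kb off. The pair thus sat in a stretch with hardly any called peak of normal cells.

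**Figure D1:**
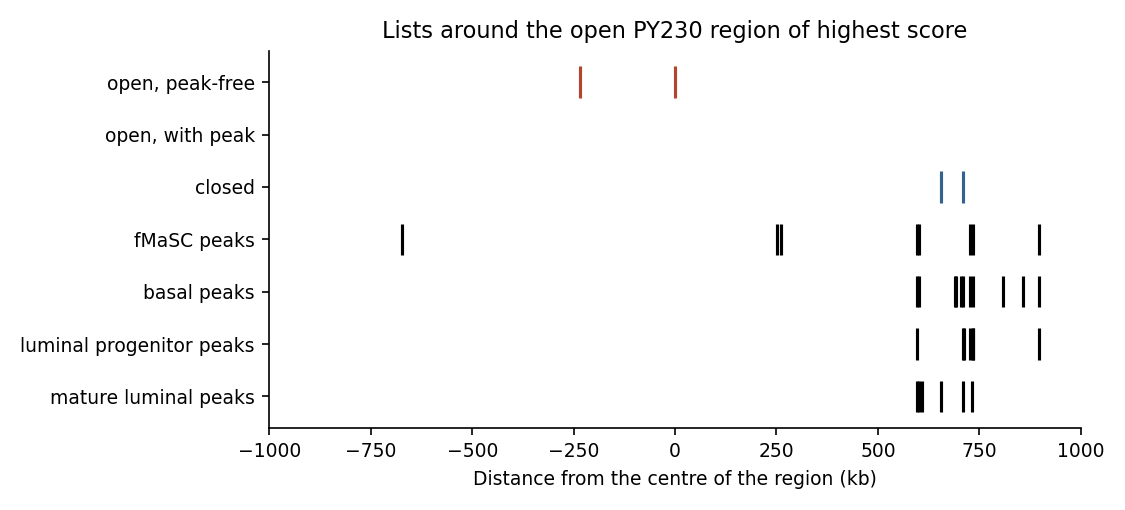
Regions and peaks within 1 Mb on either side of the open PY230 region of highest score, with distance from its centre in kb on the x axis and each list as a row of ticks. The window holds 2 peak-free open regions, 0 peak-bearing open regions and 2 closed regions, and basal, luminal progenitor and mature luminal peaks appear only on the right, beyond 596 kb.

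The next 3 regions lay among normal sites instead. The second, chr7:54028001-54029400, was 1.67 kb from an fMaSC peak and had 185 normal peaks and 11 closed regions within 500 kb. The third, chr5:130398701-130399500, was 0.660 kb from a mature luminal peak of fold 13.9 and 0.501 kb from a closed region, so a gain and a loss of accessibility stood side by side there. The fourth, chr18:74959301-74961100, was 7.90 kb from a mature luminal peak and had 200 normal peaks within 500 kb. Of the 10 peak-free regions with the highest scores, which lay on 9 chromosomes, 8 were within 10 kb of a normal peak, with 39 to 340 normal peaks within 500 kb. The exceptions were the first region and chr15:39913301-39914600, at 31.3 kb.

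Over the whole list the medians of both kinds of open region were close. The median score was 44.1 in peak-free and 44.9 in peak-bearing open regions, and the middle 50% of scores ran from 32.7 to 74.0 and from 32.1 to 68.1. The open list was cut into 10 equal slices by score. In the slice with the highest scores, 130 of 321 regions (40.5%, exact interval 35.1 to 46.1%) were peak-free. The share was 28.3% (23.5 to 33.6%) in the fifth slice, 37.7% (32.4 to 43.2%) in the seventh and 26.8% (22.0 to 32.0%) in the last. The share therefore followed no single trend with score. Among the 50 highest scores it was 50.0%, and among the 100 highest 41.0% (31.3 to 51.3%).

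**Figure D2:**
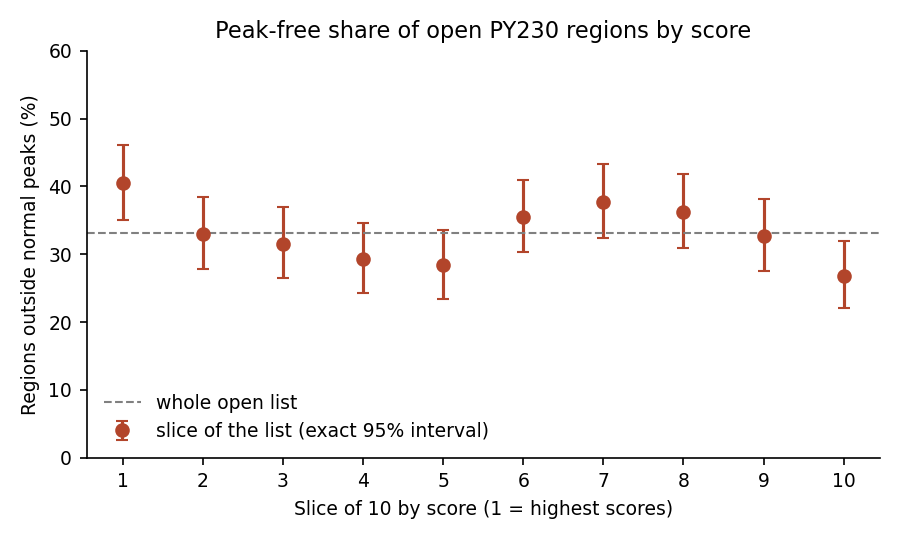
Share of regions outside normal peaks in each of 10 equal slices of the open PY230 list, ordered by score from the highest (1) to the lowest (10), with exact 95% binomial intervals; the dashed line is the share in the whole list, 33.2%. The first slice holds the highest share, 40.5%, and the last slice the lowest, 26.8%.

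Peak-free open regions were narrower than the others. Their median width was 1200 bp, with 5% below 700 bp and 5% above 2300 bp, against a median of 1500 bp in peak-bearing regions. Width bears on the rule itself, since a wide region has more room to touch a peak. Of the 471 open regions up to 900 bp wide, 53.3% were peak-free, and of the 611 wider than 2000 bp, 17.5%. The widest was chr4:55130901-55135300, at 4400 bp, with a score of 139.5 and a mature luminal peak 5.73 kb away whose fold of 4.23 was below that list's median of 8.47. Scores ran in different directions by width. Up to 900 bp the median score was 49.4 in peak-free and 41.8 in peak-bearing regions, whereas above 2000 bp it was 49.1 and 61.3. In the next wider class, up to 1200 bp, the medians were 42.8 and 39.6. They were 41.9 and 38.7 in the class up to 1500 bp and 40.4 and 42.3 in the class up to 2000 bp. Peak-free closed regions were narrower still, with a median of 900 bp.

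The luminal progenitor and fMaSC lists did most to set which regions were left. Luminal progenitor peaks touched 1561 of the open regions (48.7%), fMaSC peaks 1398, basal peaks 938 and mature luminal peaks 234 (7.29%). Of the open regions, 904 touched peaks of 1 type, 611 of 2, 511 of 3 and 118 of all 4. Without the luminal progenitor list the peak-free count would be 1547, and without the mature luminal list 1081. At the edge of the rule, chr17:30360901-30362200 missed a basal peak by 13 bp and was kept, with a score of 167.8. The regions chr9:13465901-13468000 and chr13:9056101-9057600 missed peaks by 92 and 108 bp. On the other side, chr7:129548301-129549200 shared 39 bases with an fMaSC peak of fold 4.81 and was left out, as were chr4:29061201-29063100 with 73 shared bases and chr12:96972801-96974000 with 115.

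Most peak-free open regions lay within 10 kb of a normal peak. The median distance from edge to edge to the nearest normal peak was 4.02 kb, and the middle 50% ran from 1.66 to 10.2 kb. A normal peak lay within 1 kb of 147 regions (13.8% ± 1.04, SE from leaving out each of 20 chromosomes in turn), within 10 kb of 795 (74.7% ± 1.90) and within 50 kb of 1022 (96.1% ± 0.743). The median number of normal peaks within 500 kb was 168 around peak-free open regions, 157 around peak-bearing open regions and 163 around peak-free closed regions. Peak-free closed regions had a median distance of 3.59 kb, with 77.7% ± 1.08 within 10 kb. Distance to a peak is what chose both sets, so no test was made. How near to a peak positions picked at random would lie was not measured.

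**Figure D3:**
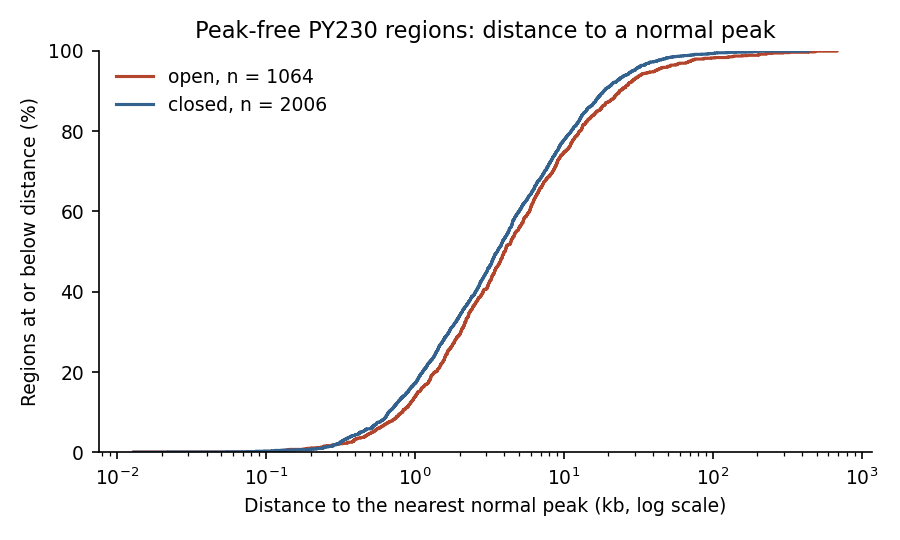
Cumulative share of the 1064 peak-free open and 2006 peak-free closed PY230 regions against the distance to the nearest normal peak in kb, on a log scale. The open curve runs slightly to the right of the closed curve, with medians of 4.02 and 3.59 kb.

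A small tail lay far out. More than 100 kb from any normal peak were 19 peak-free open regions on 8 chromosomes, with scores from 26.1 to 1152.8 and a median of 53.0. X carried 4 of them. The farthest was chrX:116278101-116279400, 686.6 kb from an fMaSC peak, with a score of 38.6 and no normal peak, other open region or closed region within 500 kb. Next came chr19:19824201-19825700, at 488.2 kb, and chrX:106930301-106931600, at 486.9 kb. The nearest peak was of fMaSC for 10 of the 19, of mature luminal cells for 4, of luminal progenitors for 3 and of basal cells for 2. Scores above the 172.2 that 5% of all peak-free open regions exceeded belonged to the chr7 pair and to chr17:39772001-39773700 (peak_105 of the open list), which scored 183.5.

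The cell type of the nearest normal peak differed between peak-free open and closed regions. A luminal progenitor peak was the nearest for 23.5% ± 1.40 of peak-free open and 10.97% ± 0.998 of peak-free closed regions. A mature luminal peak was the nearest for 17.9% ± 0.874 of open and 33.3% ± 1.06 of closed regions. For fMaSC the shares were 24.4% ± 1.89 and 18.4% ± 1.14, and for basal cells 34.9% ± 2.36 and 37.8% ± 1.32. Ties were counted for each list. For comparison, luminal progenitor peaks made up 21.3% of all normal peaks, mature luminal peaks 21.9%, fMaSC peaks 28.4% and basal peaks 28.5%. The luminal progenitor share of peak-free open regions was thus near that of the peaks, while that of peak-free closed regions was below it. Peak-free open regions were above the basal and below the fMaSC and mature luminal shares of the peaks. Since peaks of all types entered the choice of regions, these shares are a description.

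The lists named UAR and URR were not used by the rule, but they overlap the peaks that were. The labels do not expand these names. Each normal type has both lists. Of the mature luminal UARs, 99.9% touched a mature luminal peak and 42.7% a luminal progenitor peak, and of the mature luminal URRs, 20.6% touched a mature luminal peak and 99.7% a luminal progenitor peak. In each of the 8 lists at least 99.9% of regions touched a normal peak, so the rule left peak-free open regions little room to touch them. Of the peak-free open regions, 1 touched an fMaSC UAR (chr6:103267601-103268500), 1 touched a luminal progenitor UAR (chr17:29704801-29707600), and 0 touched any of the other 6 lists. A mature luminal URR lay within 50 kb of 10.8% ± 1.303 of peak-free open regions and of 4.89% ± 0.541 of peak-free closed regions. The difference was 5.92 points (95% jackknife interval over chromosomes 3.24 to 8.61, or 1.98 to 9.87 when widened for 8 lists). Against peak-bearing open regions, of which 17.1% ± 0.918 had such a URR within 50 kb, the difference was -6.31 points (-9.11 to -3.51), and 115 peak-bearing regions touched one. A mature luminal UAR lay within 50 kb of 15.8% ± 1.52 of the open and 23.7% ± 1.21 of the closed ones, and the difference was -7.89 points (-11.5 to -4.25, widened -13.2 to -2.55). It was -22.8 points without the mature luminal peak list in the rule, and against peak-bearing open regions (13.0% ± 0.860) it was 2.82 points (0.389 to 5.26). Luminal progenitor UARs were nearby in 3.76% ± 0.793 of open and 1.65% ± 0.319 of closed regions. That difference of 2.11 points had an interval of 0.229 to 4.00, but -0.655 to 4.88 when widened. It was 6.35 points without the luminal progenitor peak list, and -4.03 points (-5.64 to -2.42) against peak-bearing open regions, of which 93 touched such a UAR. The sign of all 3 differences thus depended on which regions served as the reference. Peak-bearing regions could touch these lists, while the rule nearly barred peak-free regions from doing so. The differences of -6.31 and -4.03 points against peak-bearing regions therefore follow in part from the rule. Against peak-free closed regions, the intervals of the other 5 lists included 0. UARs and URRs come from the same normal cells as the peaks, so they are not independent of the choice of regions. All of these differences and their intervals are therefore a description and carry no test. The whole lists differed in the same directions: mature luminal UARs were touched by 1 open and 2786 closed regions, and mature luminal URRs by 115 open and 2 closed regions.

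**Figure D4:**
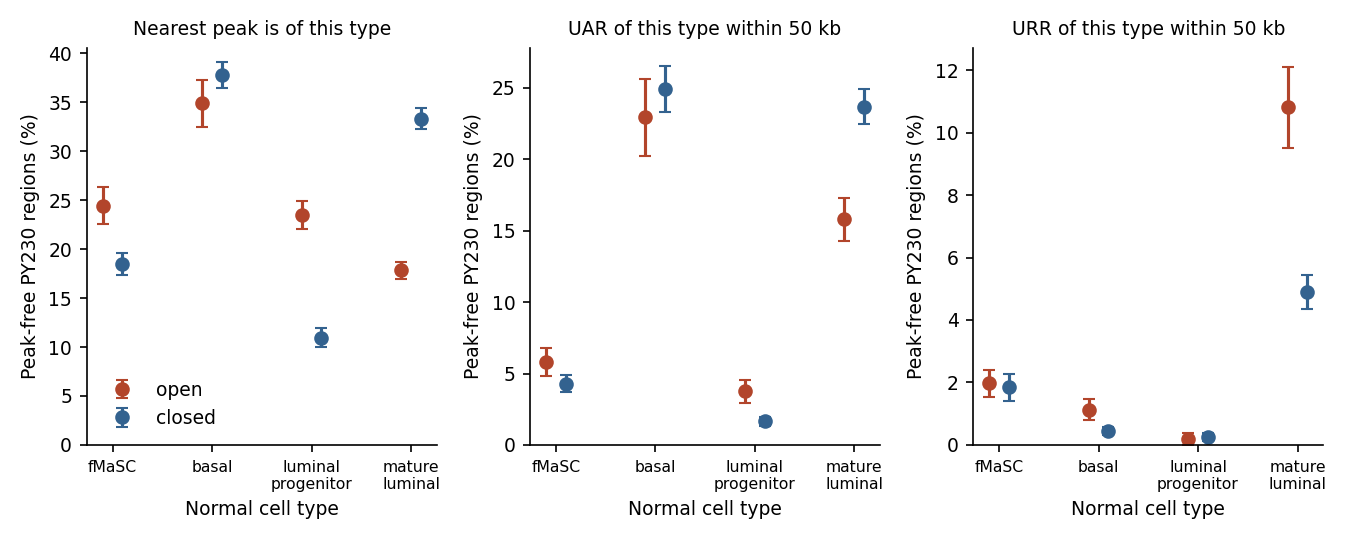
Shares of peak-free open and closed PY230 regions, in percent, whose nearest normal peak is of each type (left), or that have a UAR (middle) or URR (right) of each type within 50 kb; bars are SE from leaving out each chromosome. Open regions lie above closed ones for luminal progenitor peaks and mature luminal URRs (10.8% against 4.89%) and below them for mature luminal peaks and UARs.

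Peak-free open regions were spread unevenly over the chromosomes. Chromosome 4 held 148 of them, chromosome 1 held 125 and chromosome 18 held 68. Per 1000 normal peaks there were 8.08 on chromosome 4, 7.11 on chromosome 18 and 6.33 on chromosome 1, against 3.78 over all chromosomes. Chromosomes 9 and 16 had the fewest, at 1.74 and 1.84. Chromosomes 1, 4 and 18, picked after these values were seen, carried 32.0% of peak-free open, 27.0% of peak-bearing open and 16.4% of peak-free closed regions and 16.9% of normal peaks. Chromosomes 4 and 18 alone held more peak-free open than peak-free closed regions.

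**Figure D5:**
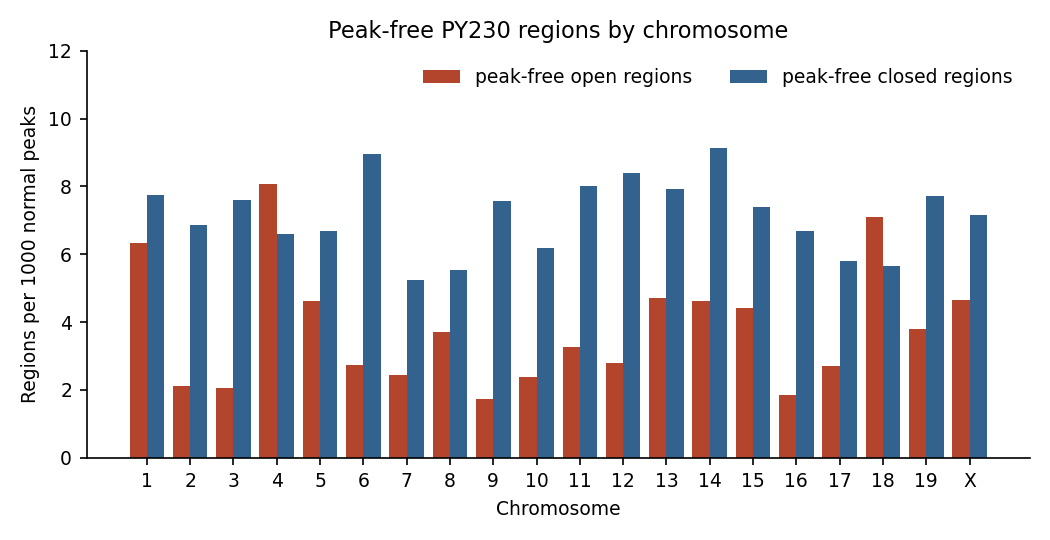
Peak-free open and closed PY230 regions on each chromosome, as regions per 1000 normal peaks of that chromosome. Open regions reach 8.08 on chromosome 4 and 7.11 on chromosome 18, where they exceed closed ones, and fall to 1.74 on chromosome 9.

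The placement along chromosome 4 changed abruptly. Of its 148 peak-free open regions, 147 began in the first 120 Mb and 1 beyond, although 7291 of the 18321 normal peaks of that chromosome lay beyond. Per 1000 normal peaks this was 13.3 before and 0.137 after that position. The last region before it was chr4:118191301-118192500, and the single region beyond was chr4:134334901-134337100, with a score of 23.4. Peak-bearing open regions also became fewer, with 201 before and 19 after, or 18.2 and 2.61 per 1000 normal peaks; whether the drop differed between both kinds was not tested. Closed regions went the other way: 54 peak-free closed regions lay before and 67 after, or 4.90 and 9.19 per 1000 normal peaks. The position of 120 Mb was chosen after the counts in 10 Mb bins were seen. DNA copy number in the compared cells was not measured in these lists, and its part in this step was not tested. On chromosome 11, 24 of 57 peak-free open regions fell between 110 and 120 Mb, the highest count of any of 275 such bins, and no other bin of that chromosome held more than 8. The same bin held 15 of the 67 peak-bearing open regions of chromosome 11 and 2114 of its 17476 normal peaks.

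The densest places followed this pattern. The densest 1 Mb window began at 116368901 on chromosome 11 and held 9 peak-free open regions, 3 peak-bearing open regions, 3 closed regions and 314 normal peaks. Their scores were low, from 22.0 to 47.5. The second, from 62082701 on chromosome 4, held 8 with scores from 29.0 to 133.5, beside 10 peak-bearing open regions. It contained a run of 3 peak-free regions within 5000 bp, led by chr4:62084601-62085600 with a score of 133.5. The third, from 53961301 on chromosome 4, held 7 peak-free and 7 peak-bearing open regions among only 73 normal peaks. No peak-free closed region began in any of these 3 windows.

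Chromosome X carried a larger share of peak-free than of peak-bearing open regions. It held 28 of 1064 peak-free regions (2.63%, exact interval 1.76 to 3.78%) and 28 of 2144 peak-bearing ones (1.31%, 0.870 to 1.88%), a difference of 1.33 points with an interval of 0.277 to 2.56, combined from both exact intervals. That interval included 0 under 5 of 11 alternatives. The closed list showed shares of 2.14% and 1.42% in the same order. X held 6019 normal peaks, the fewest of any chromosome, and those peaks set which regions are peak-free. Per 1000 normal peaks, X carried 4.65 peak-free open regions, against 3.78 over all chromosomes. The difference in X shares is therefore a description and carries no test. By chromosome, the peak-free share of the open list ran from 22.0% on chromosome 19 to 50.0% on X, with 46.0% on chromosome 11.

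The nearest open neighbour was itself peak-free more often for peak-free than for peak-bearing regions, although it was peak-bearing for most of both. It was peak-free for 38.9% ± 2.74 of peak-free and 30.7% ± 1.27 of peak-bearing regions, a difference of 8.22 points (95% jackknife interval 2.75 to 13.7). Without the luminal progenitor peak list in the rule it was 2.52 points (-1.99 to 7.03). The status of the neighbour is set by the same peak lists that chose the regions, so this difference is a description and carries no test. Having any open region within 10 kb was not clearly more common. It held for 20.8% ± 2.28 of peak-free and 17.4% ± 1.57 of peak-bearing regions, and the difference of 3.42 points had an interval of -0.635 to 7.47. Within 5 kb the shares were 14.0% and 11.1%. That difference of 2.86 points had an interval of 0.0955 to 5.62, which ends near 0. Within 20 kb it was 1.37 points (-3.25 to 5.99). Within 1 kb of another open region were 64 peak-free regions (6.02%) and 83 peak-bearing ones (3.87%). For 27 of the 64, that neighbour was peak-bearing. Most regions were alone: 843 of the 1064 had no other open region within 10 kb, 94 belonged to 45 groups made only of peak-free regions, and 127 shared a group with peak-bearing regions. None of the 45 had more than 3 regions. In the whole open list, 2615 of 3208 regions were alone, and the rest formed 267 groups, 116 of them mixed. The group at chr13:54817201-54822800 had 3 peak-free regions in 5600 bp with a highest score of 272.6. Groups of 3 also lay at chr4:62082701-62087700, within the second of the densest windows, at chr18:10788601-10795400 and at chr5:75874101-75878300, with highest scores of 133.5, 101.3 and 95.03.

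Losses of accessibility were not shown to lie nearer to these gains than to the others. A closed region lay within 50 kb of 43.2% ± 1.97 of peak-free and 40.2% ± 1.81 of peak-bearing open regions, a difference of 3.03 points with an interval of -1.47 to 7.52, which leaves room for a difference in either direction. Within 5 kb the shares were 4.04% (exact interval 2.94 to 5.41%) and 4.10% (3.30 to 5.03%). Within 1 kb there were 7 peak-free open regions with a closed neighbour (0.658%, 0.265 to 1.35%), among them the third-ranked region on chromosome 5. Of the peak-bearing regions, 9 had one (0.420%, 0.192 to 0.795%).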

How the data were processed

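Nuclei of sorted cells were transposed and sequenced as paired ends, per the labels' protocols. Tools listed in the submitters' processing notes, without their roles, are MACS2 2.1.1, SICER, Bowtie 0.12.8, SAMtools 1.3.1, bedtools 2.20.1 and FastQC, with the mm9 build. The peak lists, pooled over both samples of a type at a q-value of 0.001 per their names, carry a fold deposited by the authors, which is a ratio over the peak caller's background. The open, closed, UAR and URR lists carry a score deposited by the authors with no stated scale. The calling of these lists and the handling of repeats and duplicates are not given in the sources used here.

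Positions are mm9 and 1-based. Grid-based lists were moved by 1 base, and 12 mitochondrial peaks were left out. Overlap means 1 shared bp. Differences of shares have SE and 95% intervals (t) from leaving out each of 20 chromosomes, which describe evenness along the genome, not variation between mice. Regions of a list are not independent. Regions named are the 3 highest scores, the widest, the farthest from and nearest to a peak, the densest windows and those touching a UAR or URR; others were named after their values were seen. The regions, lists and rules were chosen with earlier results of these data known. Comparisons with UARs and URRs, the nearest open neighbour, and the counts by chromosome and bin were added after the lists were seen. Distances were tested on simulated data against bedtools 2.31.1. The jackknife intervals were tested on simulated data too. With no true difference, 18 of 200 intervals (9%) excluded 0 at the 95% level, so intervals that end near 0 are weak. Both simulated sets had the same mix of chromosomes. Peak-free open and closed regions did not, so the check does not cover differences between them. Python 3.11.15, numpy 2.4.6, pandas 2.3.3 and scipy 1.17.1 were used.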

Additional observations from a re-analysis of the deposited data

How the results depend on the processing

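The lists hold no values per sample, so no sample could be left out, and depth, which limits which peaks exist, is unknown. No paired analysis was possible because each list pools its samples. The motif and gene tests were not run, since no genome or annotation of build mm9 was used here. The count of 1064 became 2441 when only peaks covering 50% or more of a region counted, with a median width of 1500 bp, 1930 with peaks at or above the median fold, and 2131 with 30000 peaks per list. It lay between 916 and 1547 under the other 8 alternatives. The share with a normal peak within 10 kb was 55.8% at 5 kb, 96.1% at 50 kb, 58.6% with peaks at or above the median fold and 70.9% without fMaSC peaks. The densest window held 14 regions at 2 Mb. The excess of open neighbours within 10 kb had an interval above 0 with 50% cover (6.64 points), with 500 bp around the centre (4.21), at 5 kb (2.86) and for widths of 1000 to 2000 bp (6.74). The excess of closed neighbours within 50 kb did so with peaks at or above the median fold (3.99 points), with 30000 peaks (3.75) and with 500 bp around the centre (4.41), and turned to -0.178 without fMaSC peaks. The excess of peak-free nearest neighbours was 2.52 points without luminal progenitor peaks, with an interval that included 0; under 10 other alternatives it lay between 6.15 and 9.57. Against peak-free closed regions, the differences near mature luminal URRs (3.77 to 8.24 points) and UARs (-22.8 to -7.13) kept their sign and excluded 0 under 12 alternatives. Peaks of the same normal cells chose the regions, so these reruns are a description and no independent support. Leaving out chromosome 4 and the width range were chosen after seeing the data.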
